A study of Mus musculus with 8 samples.

Results

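The 7 genes described here encode the chains, chaperones and master regulator of antigen presentation by MHC class II molecules: H2-Aa, H2-Ab1, H2-Eb1, Cd74, H2-DMa, H2-DMb1 and Ciita. They were picked by gene symbol, with the difference between mdx and wild-type hearts already known, and all 7 were found among 14578 genes, as 12 of 33027 transcripts. Their levels against wild type are therefore a description with no test, and the 1 comparison in which they are tested is mdx sln+/- against mdx. The study sequenced RNA of the left ventricle from mice of 6 months on a C57 background. There were 2 wild-type (WT) libraries, 3 of mdx mice, which lack dystrophin through a mutation of Dmd, and 3 of mdx sln+/- mice, which carry the same mutation and are heterozygous for loss of Sln. Sln encodes sarcolipin, an inhibitor of the calcium pump of the sarcoplasmic reticulum. The labels do not say whether each library came from its own mouse, so the spread and p-values cover these libraries, and they do not give the sex.

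MHC class II molecules are pairs of an alpha and a beta chain that carry peptides of ingested protein to the cell surface for CD4+ T cells. The invariant chain, encoded by Cd74, escorts new pairs and fills their groove, proteases cut it down, and H2-DM, a pair of H2-DMa and H2-DMb1 products, exchanges the last fragment for peptide. The coactivator CIITA switches the whole set on in dendritic cells, B cells and macrophages, and under interferon gamma also in other cells. In the heart, class II is carried mainly by macrophages and dendritic cells. Left ventricle is mostly cardiomyocyte RNA, and in such bulk RNA fewer cells of a type and less RNA per cell cannot be told apart.

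CIITA does not bind DNA itself but docks on factors at the promoters of these genes, among them the RFX complex at the X box and NF-Y at the Y box, an inverted CCAAT. Promoter sequences from RefSeq (GRCm38.p6), from 250 bases before to 50 after a gene's start, were matched within 200 bases of the first base listed in the data for 3 members, and are shown because the members moved together. Capitals mark GNAAC, the core of the X box half-site, and GATTGG, the core of the Y box, where GATTGG follows on the gene's strand with its first base 28 to 36 bases after that of GNAAC. The letters and this window were chosen with the sequences in view. H2-Aa is at chr17:34287774-34288073, minus strand, H2-Eb1 at chr17:34305617-34305916, plus strand, and H2-DMb1 at chr17:34152941-34153240, plus strand.
H2-Aa: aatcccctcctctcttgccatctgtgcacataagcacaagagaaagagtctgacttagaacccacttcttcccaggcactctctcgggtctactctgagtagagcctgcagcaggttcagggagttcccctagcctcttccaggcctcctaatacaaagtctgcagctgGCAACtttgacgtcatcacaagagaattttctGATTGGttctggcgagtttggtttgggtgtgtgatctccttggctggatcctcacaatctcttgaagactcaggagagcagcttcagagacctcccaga
H2-Eb1: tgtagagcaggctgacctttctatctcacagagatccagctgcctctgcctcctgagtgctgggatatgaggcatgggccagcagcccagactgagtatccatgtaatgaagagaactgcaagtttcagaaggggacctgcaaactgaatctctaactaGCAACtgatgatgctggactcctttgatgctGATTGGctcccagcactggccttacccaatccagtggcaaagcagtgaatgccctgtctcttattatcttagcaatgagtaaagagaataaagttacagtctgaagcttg
H2-DMb1: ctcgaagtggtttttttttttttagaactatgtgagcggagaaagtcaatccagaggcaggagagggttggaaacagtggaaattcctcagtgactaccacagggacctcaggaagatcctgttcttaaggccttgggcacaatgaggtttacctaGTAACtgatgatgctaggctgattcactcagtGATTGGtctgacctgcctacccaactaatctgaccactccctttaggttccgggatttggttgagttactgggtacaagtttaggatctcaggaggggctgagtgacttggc

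Each of the 3 promoters held the spaced pair once, with 32 bases between the first letters of the motifs in H2-Aa and H2-DMb1 and 31 in H2-Eb1. GATTGG began 49 bases before the RefSeq start in H2-Aa, 60 in H2-Eb1 and 62 in H2-DMb1. Of all 32851 promoters of 300 bases, searched on both strands, 84.8% held GNAAC, 16.1% held GATTGG and 0.569% (187) held the pair at this spacing. A match describes letters and is no proof of binding. H2-DMa has 2 RefSeq starts in the table, neither near its listed transcript, and H2-Ab1, Cd74 and Ciita were not matched.

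Values are log2(value + 1), where the value is the abundance summed over a gene's transcripts and its scale is the depositors' own. Whether it was divided by transcript length is not known, so levels are compared between samples and not between genes. The values of a library summed to between 780262 and 924253. Averaged together, libraries mdx 2 and mdx sln+/- 2 had the mean of the other 4 dystrophin-deficient libraries in each transcript (largest difference 5.12e-05), which shows that a term with this contrast had been removed before deposit. As a consequence mdx 2 and mdx sln+/- 2 lie on opposite sides of their group means by nearly the same amount in each gene. The main fit here includes that term. The log2 level of Dmd lay at 6.60 and 6.98 in the WT libraries, against 4.09 to 4.32 in the remaining 6. The ventricular markers were all present, and 0 of 8 passed the test in any comparison. Over all genes tested, 15.1% passed in mdx against WT and 15.9% in mdx sln+/- against WT. Without the removed term Ryr2 (-0.38) and Pln (-0.44) passed as lower and Tnnt2 (0.34) as higher in mdx against WT (limma, adjusted p = 0.0404, 0.0468 and 0.0328). The Y-linked gene Eif2s3y stood at 0.92 in WT 2 and 1.31 in mdx sln+/- 3, against 6.11 in WT 1 and 3.29 to 5.91 elsewhere.

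The antigen-binding chains come first. H2-Aa, the alpha chain of the I-A molecule, stood at log2 levels of 4.21 (WT 1) and 4.19 (WT 2), of 7.44, 6.50 and 6.62 in mdx 1, 2 and 3, and of 6.60, 7.07 and 6.46 in mdx sln+/- 1, 2 and 3. H2-Ab1, its beta chain, had 3.61 and 3.60 in WT, 7.37, 6.28 and 6.31 in mdx, and 6.35, 6.84 and 6.19 in mdx sln+/-. H2-Eb1, the beta chain of the I-E molecule, had 3.79 and 4.01 in WT, 7.41, 6.33 and 6.43 in mdx, and 6.47, 6.97 and 6.30 in mdx sln+/-. Common C57 strains do not express its alpha chain partner, H2-Ea, which was not analysed here. For each chain the WT libraries lay close together and far below the other 6. Mdx 1 was the highest library and mdx sln+/- 2 the second, as for all 7 members, while mdx 1 was highest in 15.2% of all 13783 genes tested and this order of both was found in 5.71%.

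The escort and the peptide exchanger showed the same layout. Cd74, the invariant chain, had a log2 level of 5.22 and 5.27 in WT, 8.42, 7.41 and 7.46 in mdx, and 7.54, 7.97 and 7.34 in mdx sln+/-. H2-DMa, the alpha chain of H2-DM, had 1.00 and 1.22 in WT, 3.40, 2.71 and 2.59 in mdx, and 2.63, 2.92 and 2.65 in mdx sln+/-. H2-DMb1, its beta chain, had 1.05 and 0.86 in WT, 3.55, 2.67 and 2.48 in mdx, and 2.77, 3.03 and 2.62 in mdx sln+/-. H2-DMb1 has a near-identical neighbour, H2-DMb2, which was not analysed here and whose reads may be counted on it, so its value is uncertain. No library of either mdx group came down to the WT range.

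Ciita, the regulator of the set, had the same layout. The WT libraries had log2 levels of 0.69 and 0.81, and those with mutant Dmd had 2.84, 2.02 and 1.65 in mdx, and 1.85, 2.15 and 2.00 in mdx sln+/-. Here too every dystrophin-deficient library lay above both WT libraries, but the gap was narrower and mdx 3 the lowest of the 6. Among all genes tested, 27.8% had no overlap of mdx above WT, 36.4% none of mdx sln+/- above WT, and 24.1% had the 6 libraries above both WT libraries, so this layout alone is common in these data. Ciita overlaps Dexi and H2-DMa overlaps Brd2, each on the opposite strand, and it is not known if reads were assigned by strand.

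**Figure D1:**
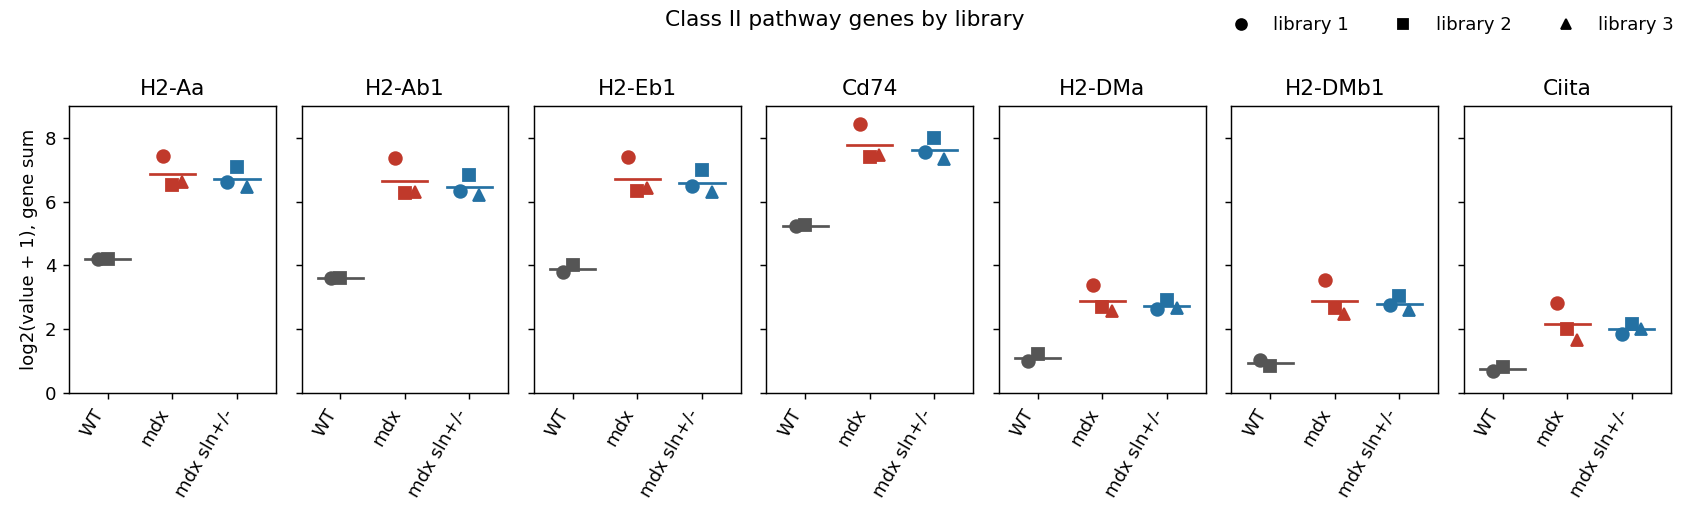
Level of each of the 7 genes, as log2(value + 1) on the vertical axis, in each library (symbols: libraries 1, 2 and 3) by genotype, with a line at the group mean. WT libraries lie lowest in every panel, and mdx 1 (red circle) is the highest library of each gene.

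The differences from WT are given here gene by gene. For H2-Ab1 the WT mean was 3.60 ± 0.01 (SD, n = 2), the mean of mdx 6.65 ± 0.62 (SD, n = 3) and that of mdx sln+/- 6.46 ± 0.34 (SD, n = 3). Its difference from WT was 3.05 ± 0.36 in mdx and 2.86 ± 0.36 in mdx sln+/- (limma SE). H2-Eb1 differed by 2.82 ± 0.35 and 2.68 ± 0.35, H2-Aa by 2.65 ± 0.30 and 2.51 ± 0.30, and Cd74 by 2.52 ± 0.33 and 2.38 ± 0.33. These 4 genes ranked 5, 7, 9 and 10 from the top among 13783 genes by their difference in mdx. H2-DMb1 differed by 1.94 ± 0.32 and 1.85 ± 0.32 (rank 21), H2-DMa by 1.79 ± 0.26 and 1.62 ± 0.26 (rank 31), and Ciita by 1.42 ± 0.33 and 1.25 ± 0.33 (rank 76). The median difference of the 7 in mdx was 2.52, beside 0.02 over all genes tested, of which 8.15% were called higher at an adjusted p of 0.05. Between mdx sln+/- and WT the median was 2.38, beside 0.05 and 9.41%. Because this contrast chose the genes and both groups are set against the same WT libraries, nothing is tested in these numbers.

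**Figure D2:**
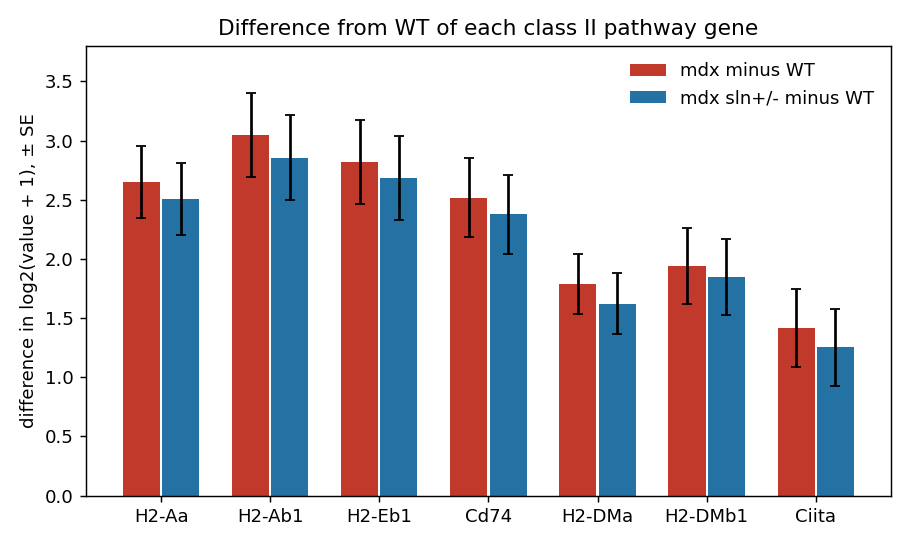
Difference from WT in log2(value + 1) for each gene (bars, ± limma SE) in mdx (red) and mdx sln+/- (blue), with the vertical axis from 0. H2-Ab1 has the highest bar in both groups and Ciita the lowest.

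The order of sizes depended on the added 1, which compresses low genes. On the linear scale the ratio of group means in mdx to WT was 9.54 for H2-Ab1, 7.94 for H2-Eb1, 7.28 for H2-DMb1 and 6.90 for H2-Aa. It was 6.18 for Cd74, 5.75 for H2-DMa and 5.54 for Ciita, so Ciita stayed lowest while H2-DMb1 moved above H2-Aa and Cd74. The same linear ratios of mdx sln+/- to WT were 7.95 for H2-Ab1, 6.92 for H2-Eb1, 6.40 for H2-DMb1, 6.06 for H2-Aa, 5.39 for Cd74, 4.87 for H2-DMa and 4.43 for Ciita. With 0.1 added in place of 1, the log2 difference of Ciita in mdx was 2.17, that of H2-DMa 2.38 and that of H2-DMb1 2.65, against 3.15 for H2-Ab1. Without mdx 1, the differences in mdx were 2.69 for H2-Ab1, 2.36 for H2-Aa and 1.08 for Ciita.

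The transcripts of a gene moved in the same direction. Cd74 has 3 listed transcripts, of which Cd74-201 took 62.2% to 65.0% of the summed abundance in WT, 60.7% to 64.1% in mdx and 61.2% to 62.4% in mdx sln+/-. Cd74-202 took 27.5% to 31.7% in WT, 32.0% to 33.3% in mdx and 32.1% to 33.6% in mdx sln+/-. H2-Aa-201 held 88.2% to 90.2% of H2-Aa in WT and 87.7% to 91.4% in the other groups. H2-Ab1-201 held 96.9% to 98.3% of H2-Ab1 in WT and 96.2% to 97.3% in the others. No WT library overlapped a library of the other groups in any of the 12 transcripts, whose genes were chosen with this contrast known. Among all genes tested, 24.1% had the 6 libraries above both WT libraries, and a share over all transcripts is not given. Apart from a small shift between the Cd74 transcripts, the shares of each gene's transcripts were thus close in all groups. Each library has an r1 and an r2 column, averaged here, and for the 7 genes these differed by at most 0.21 (Ciita in mdx 3, H2-DMa in mdx sln+/- 3), well under the gap to WT.

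Most class II genes lie together in the H2 complex. From H2-DMa to H2-Eb1 the region spans chr17:34135182-34316199 (mm10, positions counted from 1, as listed for the transcripts) and holds 9 genes of the data, 5 of them members. In order these are H2-DMa (34135182 to 34139101, plus strand), H2-DMb1 (34153072 to 34160230, plus), H2-Ab1 (34263209 to 34269418, plus), H2-Aa (34282744 to 34287827, minus) and H2-Eb1 (34305877 to 34316199, plus). Ciita lies on chromosome 16 (10488178 to 10527564, plus). The other 4 genes of the region serve class I presentation and were named after their values were seen. Psmb9 and Psmb8, subunits of the immunoproteasome, rose by 1.56 ± 0.31 (limma, adjusted p = 0.0196) and 1.38 ± 0.25 (adjusted p = 0.015) in mdx against WT. Tap1 and Tap2, which pump peptides into the endoplasmic reticulum, rose by 1.49 ± 0.38 (adjusted p = 0.0406) and 0.96 ± 0.20 (adjusted p = 0.0214). All 4 calls ended without WT 2 (adjusted p = 0.0936, 0.0793, 0.103 and 0.113), and those of Psmb9 and Tap1 also without WT 1 (0.0616 and 0.145). All 4 ended without WT 2 and mdx sln+/- 3 together, and all but Psmb8 with the style of the library names as a term. In mdx sln+/- against WT all 4 were called too, Tap1 only just (limma, adjusted p = 0.0497), and against mdx none was. Beside these counts, 8.15% of all genes tested were called higher in mdx against WT and 9.41% in mdx sln+/- against WT. From r1 alone, the call of Tap1 in mdx against WT ended as well (limma, adjusted p = 0.051).

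Heterozygous loss of Sln was examined by setting mdx sln+/- against mdx, and none of the 7 members passed there. The differences were -0.15 ± 0.26 for H2-Aa, -0.19 ± 0.30 for H2-Ab1, -0.14 ± 0.30 for H2-Eb1 and -0.14 ± 0.28 for Cd74. They were -0.17 ± 0.22 for H2-DMa, -0.09 ± 0.27 for H2-DMb1 and -0.17 ± 0.28 for Ciita (limma SE, adjusted p from 0.842 to 0.939). The 95% interval of the difference ran from -0.91 to 0.52 for H2-Ab1, from -0.75 to 0.46 for H2-Aa, from -0.80 to 0.52 for Cd74 and from -0.82 to 0.49 for Ciita. For H2-Eb1 it ran from -0.85 to 0.57, for H2-DMa from -0.68 to 0.34 and for H2-DMb1 from -0.73 to 0.55, so changes of this size in either direction are not excluded. The mdx and mdx sln+/- libraries overlapped in every member. In limma 0 of 13783 genes (0%) passed in this comparison, 1186 (8.6%) had an unadjusted p under 0.05, and the smallest adjusted p was 0.477.

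The sign of these 7 differences depended on 1 library, mdx 1. Without it they turned positive in every member, to 0.15 for H2-Aa, 0.17 for H2-Ab1, 0.20 for H2-Eb1, 0.19 for Cd74, 0.09 for H2-DMa, 0.23 for H2-DMb1 and 0.17 for Ciita, and again none passed. Without mdx sln+/- 3, H2-Eb1 and H2-DMb1 stood at 0.0031 and 0.0026. These fits with a library left out also lacked the removed term, and leaving out that term alone did not change the 7 differences. These libraries thus gave no stable direction for this comparison.

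**Figure D3:**
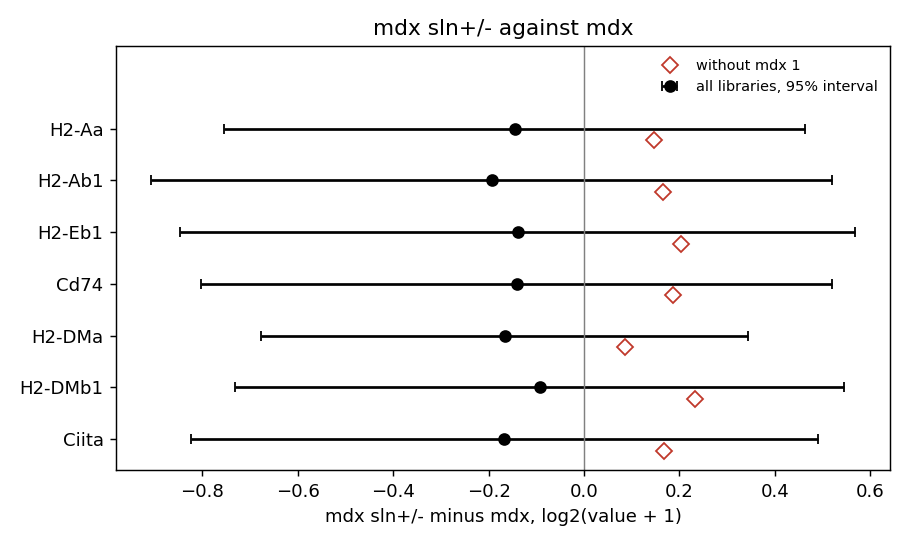
Difference mdx sln+/- minus mdx in log2(value + 1) for each gene, as black points with 95% intervals from limma. Open red diamonds give it with mdx 1 left out and the removed term not fitted. Every interval crosses 0, and every diamond lies on the positive side.

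The rest of the class II machinery moved less. Of 16 listed symbols 9 were in the data, 8 passed the filter on low values and 3 rose in mdx against WT, with 0 lower and a median difference of 0.27, beside 15.1% of all genes called (8.15% higher, 6.94% lower). Ctss (cathepsin S), which trims the invariant chain, rose by 0.86 ± 0.18 (limma, adjusted p = 0.0225), Ifi30, a thiol reductase that unfolds antigen, by 0.82 ± 0.14 (adjusted p = 0.0144) and the protease Ctsz by 0.53 ± 0.11 (adjusted p = 0.0196). The log2 level of Ctss was 3.66 and 3.45 in WT, 4.74, 4.40 and 4.11 in mdx, and 4.45, 4.53 and 4.50 in mdx sln+/-, with no overlap with WT. Such a layout, with the 6 libraries above both WT libraries, was found in 24.1% of all genes tested. Ifi30 had 2.47 and 2.59 in WT, 3.59, 3.33 and 3.13 in mdx, and 3.30, 3.32 and 3.28 in mdx sln+/-. The proteases Lgmn (0.34 ± 0.10), Ctsb (0.20 ± 0.07), Ctsd (0.12 ± 0.10), Ctsl (-0.03 ± 0.10) and Ctsh (-0.06 ± 0.15) did not pass. Without the removed term Lgmn and Ctsb did (limma, adjusted p = 0.0191 and 0.0358). Lgmn also passed with mdx 1, mdx 3 or any 1 mdx sln+/- library left out (0.0131 to 0.048), in fits that likewise lacked the term. March1, which marks class II for removal, was under the filter, with 0.86 and 0.81 in WT and 0.48 to 0.80 in the others. The calls of Ctss, Ctsz and Ifi30 ended without WT 1 (adjusted p = 0.0502, 0.0637 and 0.0526) and without WT 2 (0.114, 0.0772 and 0.0572), leaving 0 of the 8 called either way, and with the style of the library names as a term (0.0779, 0.0777 and 0.0529).

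Between mdx sln+/- and WT, 4 of these 8 rose: Ctss by 0.94 ± 0.18, Ifi30 by 0.77 ± 0.14, Lgmn by 0.43 ± 0.10 and Ctsb by 0.30 ± 0.07 (limma, adjusted p from 0.0161 to 0.038), beside 15.9% of all genes called (9.41% higher, 6.5% lower). Both comparisons use the same WT libraries. In mdx sln+/- against mdx none of the 8 passed, and Ctsz had the smallest unadjusted p (0.0336, adjusted 0.578), at -0.23.

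Among the factors that CIITA docks on or works with, no gene passed as higher in mdx. All 11 listed genes of class II gene control were tested, with 0 higher, 1 lower and a median difference of 0.05 in mdx, beside 8.15% higher and 6.94% lower over all genes tested, so that the count is near the background. Rfx5, the DNA-binding subunit of the RFX complex, fell by 0.59 ± 0.11 (limma, adjusted p = 0.0167), with log2 levels of 2.32 and 2.36 in WT, 1.71, 1.84 and 1.71 in mdx, and 1.84, 1.73 and 1.88 in mdx sln+/-. Its call ended without WT 2 (adjusted p = 0.0745), from r1 alone (0.096) and with name style as a term (0.0745). The other RFX subunits Rfxank (0.08 ± 0.13) and Rfxap (0.09 ± 0.09) did not pass. Neither did the NF-Y subunits Nfya (0.40 ± 0.12), Nfyb (-0.07 ± 0.11) and Nfyc (-0.01 ± 0.09), nor Creb1 (0.05 ± 0.10), which binds beside RFX. Nfya passed without the removed term (limma, adjusted p = 0.0265). It also passed with mdx 1, mdx 2 or any 1 mdx sln+/- library left out (0.0369 to 0.0482), in fits that likewise lacked the term. The coactivators and modifiers Crebbp (0.27 ± 0.13), Ep300 (-0.20 ± 0.11), Kat2b (0.00 ± 0.09) and Carm1 (0.18 ± 0.08) did not pass either. Between mdx sln+/- and WT, Rfx5 fell by 0.52 ± 0.11 and Nfya rose by 0.51 ± 0.12 (limma, adjusted p = 0.0227 and 0.0349).

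Interferon gamma is the main inducer of CIITA outside professional antigen-presenting cells, and its own gene, Ifng, was not analysed here. Of 12 listed genes of its signalling 10 were tested in mdx against WT. Of these, 7 had differences above 0, with a median of 0.16, beside 0.02 over all genes tested. Stat3, which carries signals of other cytokines, fell by 0.51 ± 0.12 (limma, adjusted p = 0.0286), a call that ended without WT 1 (adjusted p = 0.0629) or WT 2 (0.131). The kinase Jak2 (-0.35 ± 0.11) did not pass, although without the removed term it passed as lower (limma, adjusted p = 0.0332). Of 4 tested costimulatory genes none passed in mdx, beside 8.15% higher and 6.94% lower over all genes tested. Cd274, the checkpoint ligand PD-L1, stood at 0.93 ± 0.29 and Cd83 at 0.40 ± 0.15. Without the removed term Cd274 passed (adjusted p = 0.0348), as did Cd83 with mdx sln+/- 1 also left out (0.0478). In mdx sln+/- against WT, Cd274 rose by 1.10 ± 0.29 and Cd83 by 0.70 ± 0.15 (limma, adjusted p = 0.0449 and 0.0255), and neither differed past the threshold between the mdx groups.

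Some markers of cells that carry class II also changed. Of 19 tested macrophage and monocyte markers 5 rose, 1 fell and 13 did not pass in mdx, with a median of 0.49, beside 8.15% higher, 6.94% lower and a median of 0.02 over all genes tested. Ccr2, the receptor of recruited monocytes, rose by 1.23 ± 0.22 (limma, adjusted p = 0.0158), the integrin Itgam by 0.65 ± 0.12 (0.0179), the lysozyme Lyz2 by 0.49 ± 0.10 (0.0186) and Adgre1, which encodes F4/80, by 0.78 ± 0.16 (0.0235). Chosen after their values were seen, Cx3cr1 rose by 1.45 ± 0.32, and Lyve1, found on resident macrophages, fell by 1.31 ± 0.27. The highest of these rises, in Cx3cr1, lay near that of Ciita and below those of the other 6 members. Of 8 pan leukocyte markers 4 rose and 0 fell, against the same background, among them Coro1a (1.46 ± 0.25), Lcp1 (1.27 ± 0.24) and Fcer1g (1.04 ± 0.13). Ptprc, which encodes CD45, stood at 0.82 ± 0.28 (limma, adjusted p = 0.0913) and passed without the removed term (0.0454). Without WT 2 the calls of Ccr2, Itgam, Adgre1, Cx3cr1, Lyve1, Coro1a and Lcp1 ended (adjusted p from 0.0546 to 0.115), and without WT 1 those of Lyz2, Itgam, Adgre1, Cx3cr1, Coro1a and Lcp1 did (from 0.0506 to 0.0939). In 1 column of the pair alone, Adgre1 (r1, 0.0824) and Lcp1 (r2, 0.0765) lost theirs. With name style as a term, all calls of genes named in this group of markers ended, except those of Coro1a and Fcer1g.

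Markers of dendritic cells, B cells and T cells were thinly covered, and the counts here stand beside the same 8.15% higher and 6.94% lower over all genes. Of 5 tested dendritic cell markers Clec10a rose by 0.78 ± 0.19 (limma, adjusted p = 0.0331), a call that ended without WT 2 (0.153) and in the r2 columns alone (0.367). Itgax, which encodes CD11c, had a log2 level of 0.93 and 0.65 in WT, 2.34, 1.77 and 0.92 in mdx, and 1.10, 1.04 and 1.26 in mdx sln+/-, and did not pass (0.89 ± 0.38). Irf8, a factor of dendritic cell development, stood at 0.63 ± 0.26 and did not pass. With mdx 3 left out, in a fit without the removed term, Itgax and Irf8 passed (limma, adjusted p = 0.00689 and 0.0351). Of 10 B cell markers 2 were in the data, with summed linear levels of 3.49 and 3.62 in WT and 5.03 to 9.35 in the others. Ighm, the heavy chain of IgM, rose by 0.70 ± 0.19 (adjusted p = 0.0471), a call that ended without WT 1 (0.119) or WT 2 (0.158), with either other scaling (0.0567 and 0.0537) and in the r1 columns alone (0.112). Of 10 T cell markers 2 were in the data, Cd4 under the filter and Cd28 at -0.29 ± 0.15, which did not pass. In the same fit without mdx 3, Cd28 passed as lower (limma, adjusted p = 0.0396). Flt3, Cd79a and Cd3e were not analysed here. Of 10 endothelial markers 2 rose, Emcn by 0.34 ± 0.07 and Tek by 0.35 ± 0.09, and Vwf fell by 1.20 ± 0.27. The call of Tek ended with upper-quartile scaling (limma, adjusted p = 0.051) and in the r2 columns alone (0.116). Of 4 tested atrial markers 2 had differences above 0, with a median of -0.195. Stard10 stood at -0.83 ± 0.23 and did not pass, although without the removed term it passed as lower (limma, adjusted p = 0.0239). With that term kept, Stard10 also passed as lower with either other scaling (limma, adjusted p = 0.0476 and 0.0499). Nppa rose by 1.12 ± 0.27 and Gja5 by 0.45 ± 0.09. Without WT 2 these 5 calls ended as well (adjusted p from 0.0573 to 0.192), and with name style as a term all calls of these dendritic, B cell, endothelial and atrial markers did. Between mdx sln+/- and mdx, 0 genes of any list passed.

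**Figure D4:**
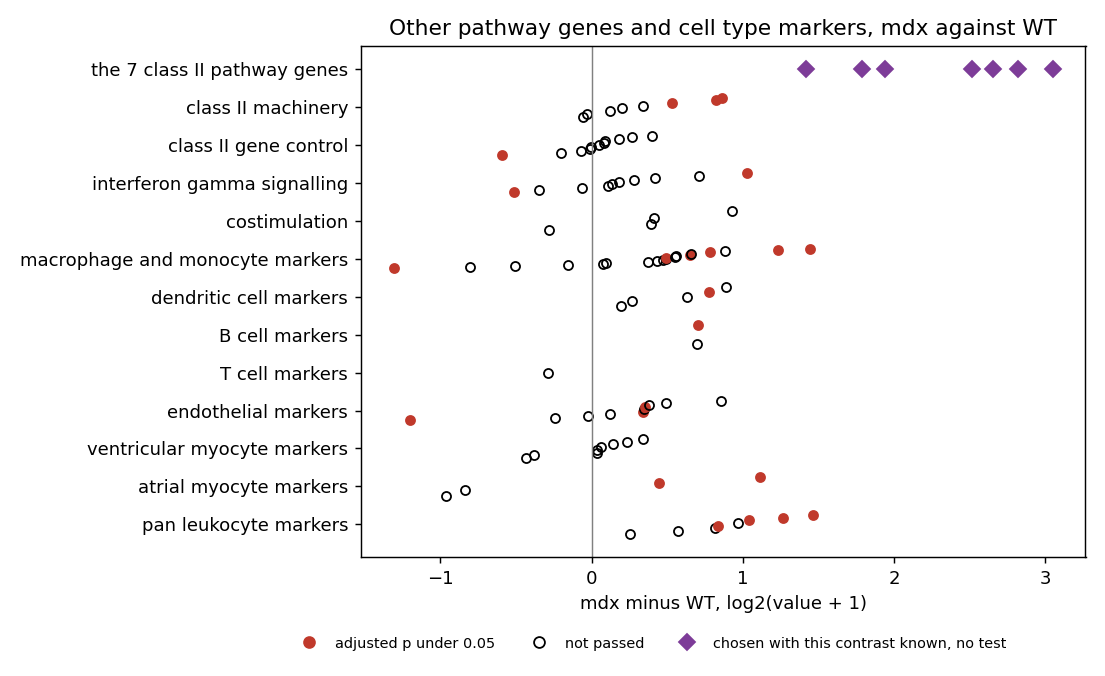
Difference mdx minus WT in log2(value + 1) of each tested gene of 12 lists (circles, filled red where the adjusted p is under 0.05), with the 7 class II pathway genes above as diamonds, which carry no test. The diamonds run from 1.42 to 3.05, and no listed gene exceeds 1.46.

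The class II genes were also set against these marker sums. The members were chosen with their rise known, so these ratios are a description with no test. Genes of high level weigh most in each sum, and Lyve1, which fell, is part of the macrophage and monocyte sum. The summed linear abundance of the 7 genes was 80.6 and 83.8 in WT, 873, 428 and 448 in mdx, and 464, 639 and 412 in mdx sln+/-. The summed macrophage and monocyte markers were 307 and 322 in WT, 452, 357 and 381 in mdx, and 399, 445 and 367 in mdx sln+/-. The ratio of both sums was 0.262 and 0.261 in WT, 1.93, 1.20 and 1.18 in mdx, and 1.16, 1.44 and 1.12 in mdx sln+/-, and the groups with and without dystrophin did not overlap. Divided by the pan leukocyte sum, the ratio was 2.01 and 2.50 in WT, 5.74 to 8.5 in mdx and 6.28 to 9.13 in mdx sln+/-. Divided by endothelial markers it was 0.0685 and 0.0836 in WT and 0.372 to 0.704 in the others. Which cells held the transcripts was not tested, and the part of the marker changes in the class II values was not tested.

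**Figure D5:**
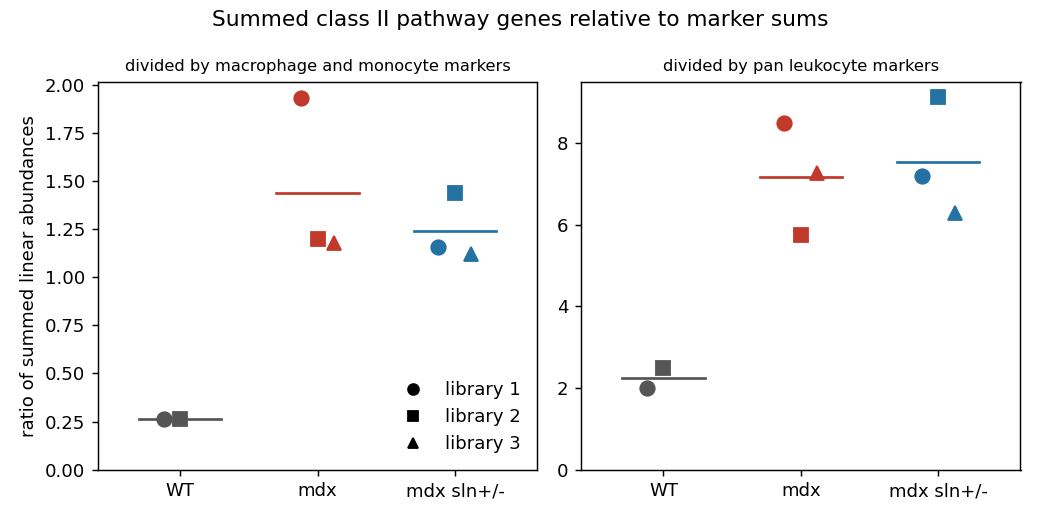
Summed linear abundance of the 7 class II pathway genes divided by the sum of the macrophage and monocyte markers (left) or of the pan leukocyte markers (right), by library and genotype, with lines at group means and axes from 0. On the left the WT libraries stand at 0.262 and 0.261 and the other 6 between 1.12 and 1.93.

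Across the 8 libraries the members followed each other closely. Pearson's r between pairs of members ran from 0.951 to 1.00 (21 pairs, median 0.992), a description that rests largely on the gap between WT and the rest. Within the 6 dystrophin-deficient libraries it ran from 0.85 to 0.999, and without mdx 1 from 0.42 to 0.997 (median 0.855, 5 libraries). All of these share libraries, their normalization and the removed term. The 8 other genes most like the members' mean z-score over the 8 libraries were Ifit3b, Shisa5, Tnfrsf1b, Dok4, Svep1, Ptpra, Parp14 and Psmb9, with r from 0.998 down to 0.991. Ifit3b, an interferon-induced gene, had 1.02 and 1.12 in WT, 3.02, 2.47 and 2.31 in mdx, and 2.41, 2.62 and 2.43 in mdx sln+/-. Parp14, another interferon-induced gene, had 4.04 and 4.01 in WT, 4.99, 4.59 and 4.58 in mdx, and 4.68, 4.84 and 4.62 in mdx sln+/-. The differences of these 8 in mdx ran from 0.28 (Ptpra, a phosphatase) to 1.56 (Psmb9), so likeness of pattern came with changes of very different size.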

How the data were processed

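RNA of the left ventricle was sequenced in 8 libraries. The submitters' processing notes name STAR 2.6.1, Partek, limma and the build mm10; other steps are not given in the sources used here. The authors deposited log2 values per transcript, as a pair of columns per library (r1, r2), whose meaning is not given; the offset of 1 was inferred from the values. No counts were used, so depth and its precision are unknown. Both columns were averaged (r between them 0.981 to 0.987), turned to linear abundances, summed per gene and put back on the log2(value + 1) scale. Genes with at least 1 in at least 2 libraries (13783) entered limma 3.58.1 (R 4.3.3; trended empirical Bayes, Benjamini-Hochberg, threshold 0.05), with group and the removed term as covariates and all 8 libraries in 1 fit (4 residual degrees of freedom). The fit was tested on simulated data. The alternatives tried changed the term, scaling, filter, added constant, columns, replicate block, libraries and name style. Members and lists were chosen with earlier results of these data known. Named were the members, the listed machinery and control genes, 3 genes of smallest p per other list with defining markers, and the 8 most alike genes; others are marked, and 1 listed gene that the rule names is not reported here. Python 3.11.15 read sequences and drew figures.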

Additional observations from a re-analysis of the deposited data

How the results depend on the processing

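None of the 19 alternatives (18 for H2-DMa and Ciita, which a mean of at least 5 removes) turned a member's difference from WT. Alternatives that left out an mdx or mdx sln+/- library, alone or with WT 2, also lacked the removed term. The number of genes called in mdx against WT, 2080, was 3798 with group only, 54 with the replicate block, 559 with name style (indexed or plain library names) as a term, and 579 to 3527 with 1 library left out. In mdx sln+/- against WT, 2193 became 3996, 74, 711 and 764 to 4473, and 1437 without both libraries of lowest Y-linked levels. The machinery genes called higher, 3, became 5, 0, 0 and 0 to 4. In mdx sln+/- against mdx no gene was called under any alternative. With 1 library left out, the difference in that comparison ran from -0.32 to 0.15 for H2-Aa, -0.38 to 0.17 for H2-Ab1, -0.34 to 0.20 for H2-Eb1, -0.32 to 0.19 for Cd74, -0.32 to 0.085 for H2-DMa, -0.30 to 0.23 for H2-DMb1 and -0.43 to 0.17 for Ciita; without both libraries of lowest Y-linked levels it was 0.0031 for H2-Eb1 and 0.0026 for H2-DMb1. Fewer residual degrees of freedom come with the block (2) and with name style (3). Beyond that the cause was not tested. Both WT libraries, mdx 3 and mdx sln+/- 3 have plain names and the rest indexed ones, so name style is partly confounded with the comparisons with WT. With it as a term each member's difference in mdx was smaller, for example 2.75 in place of 3.05 for H2-Ab1 and 1.16 in place of 1.42 for Ciita. Where 1 WT library is left out, the other is assumed to vary like the rest. Deviations of same-numbered mdx and mdx sln+/- libraries had r of -0.264, -0.996 and -0.311. The removed term fixes the second and bears on the others, so whether the numbers pair the libraries could not be checked. The labels do not say it either. Calls of named genes are followed through the alternatives for mdx against WT only, and not for mdx sln+/- against WT. Of 33 calls of named genes, the block ended 33, WT 2 left out 29, name style 27, WT 1 left out 19 and both libraries of lowest Y-linked levels left out 18, all in unchanged direction.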

Other observations

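Outside the 7 class II genes, 86 tested genes had a RefSeq promoter with GNAAC and GATTGG at the same spacing. Of these, 6 rose (6.98%) and 8 fell (9.3%) in mdx against WT, with a median difference of -0.04 on the log2 scale. Of 9417 genes with a promoter in the table but no such pair, 8.35% rose and 7.36% fell, with a median of 0.02. The motif letters and spacing were chosen with the members' sequences in view, and no test was made of these shares.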
